A study of Homo sapiens with 6 samples.

Results

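Messenger RNA was compared between 24 h and 8 h after irradiation in a pair of human esophageal squamous cancer lines, KY170 and KY170R. The comparison took 4 of the 6 arrays of the series: KY170 and KY170R at 24 h against KY170 and KY170R at 8 h, with the 24 h array of each line set against the 8 h array of the same line. The 2 arrays at 0 h were left out. KY170, written kyse170 in the labels and marked there as sensitive to radiation, is the parental line. KY170R is its radioresistant derivative, raised by long fractionated irradiation in earlier work and received by the study as a gift together with KY170, so the pair stands for 1 tumour background and 1 derived line. All 4 cultures were grown in the same medium and irradiated with a 6MV-X linear accelerator; no source used here gives the dose behind the arrays. No array holds unirradiated cells at 8 or 24 h, so the time since irradiation and any other change of the cultures over those hours cannot be told apart. The methods describe profiling in triplicate, but the files hold 1 array for each line and time, and whether a column pools repeats is not given.

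Ionizing radiation breaks DNA. Cells answer through checkpoint kinases and p53, which hold the cell cycle in G1 or before mitosis while repair proceeds, and the cycle can resume once the block is released. Later programs described after irradiation include interferon signalling, secretion of cytokines and growth factors, and stress pathways that tune protein synthesis and redox balance. Amino acid or endoplasmic reticulum stress acts through the transcription factor ATF4, which switches on amino acid synthesis and transport genes, while NRF2 governs genes against oxidants. Ribosome assembly in the nucleolus is among the largest outputs of a growing cell and depends strongly on growth signals and MYC.

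Probe intensities were read on a linear scale, after background subtraction and normalization between arrays by the authors. A floor of 24.533, the size of the most negative value in the table, served as the limit above which a probe was counted as measured. On each of the 4 arrays 15743 to 15747 of 48803 probes (32.3%) lay above it, a share that the normalization between arrays fixes. Markers of squamous epithelium were above the floor for 9 or 10 of 10 genes on every array, with summed intensities of 28728 to 39384. Of the markers of other cell types, 2 to 3 of 12 fibroblast genes, 2 to 4 of 12 endothelial genes and 3 to 5 of 14 immune genes were above it, with summed intensities of 823 to 1302, 109 to 178 and 686 to 1282. The fibroblast collagens COL1A2 and COL3A1, the endothelial genes VWF and KDR and the leukocyte gene PTPRC were below the floor on all 4 arrays. Well above it on all 4 were COL5A1 of the fibroblast list (826 at 8 h and 676 at 24 h in KY170, 1032 and 1156 in KY170R) and 2 genes of the immune list. These were CD68 (598 and 328, 924 and 570) and CSF1R (229 and 253, 226 and 237). Of 3 tested fibroblast markers 1 was called higher at 24 h, COL1A1 (40.0 and 78.1 in KY170, 20.7 and 92.4 in KY170R), while PDGFRA (89.4 and 42.6, 58.5 and 35.1) and COL5A1 did not pass. Of 4 tested endothelial markers 1 was called lower, PECAM1 (48.6 and 18.1, 46.8 and 25.3), while ESAM (50.1 and 40.7, 9.16 and 47.8), CDH5 and ERG did not pass, and of 4 immune markers none was called. The part of such cells in the results was not tested. Less RNA per cell and fewer cells of a kind, such as cells in one cell cycle phase, cannot be told apart on these arrays.

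The first question was how far expression moved between the later time points, in the same way in both lines. Probes above the floor on at least 2 of the 4 arrays were tested, 16333 in all, of which 13600 were above it on all 4. In a limma fit with time and line as terms (two-sided, Benjamini-Hochberg adjusted p under 0.05), 1536 probes (9.40%) were higher at 24 h and 1361 (8.33%) were lower. With each gene represented by its brightest tested probe, 1124 of 10117 genes (11.1%) were called higher and 928 (9.17%) lower. The median log2 change over all genes was −0.003, and called probes changed by a median of 1.09 on the log2 scale in either direction. Each called probe moved the same way in both lines, which the fit largely requires, since a difference between the lines enters its residual. Among the called probes 1247 of those higher and 1252 of those lower were above the floor on all 4 arrays, while 129 were above it at 24 h only and 30 at 8 h only. These 129 and 30 came from 450 and 417 tested probes that passed the filter only through the time at which they were high. Their calls are therefore no separate support for a change. Where a gene called here had a further tested probe, 563 of 618 such probes moved the same way, 237 were called the same way and 2 the opposite way.

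These calls rest on all 4 arrays and on the pairing by line. With 1 residual degree of freedom per probe, the spread came largely from a prior shared across probes (median 7.54 prior degrees of freedom), and noise of the arrays is mixed in it with real differences between KY170 and KY170R in their course. When any 1 of the 4 arrays was left out, 0 probes were called (2024 to 4387 had an unadjusted p under 0.05, against 5762 with all 4). Those fits took in the 0 h arrays too, so they are better set against the limma fit to all 6 arrays. It called 2079 probes, with 5207 at an unadjusted p under 0.05. In the 4 arrays without the pairing by line 0 probes were called as well, with 4029 at an unadjusted p under 0.05. A fold change is given below as the log2 difference between 24 h and 8 h, followed by ± and the SE of the fit (2 arrays against 2), and a value in parentheses after a gene name is its log2 change. The level of each array is its deposited intensity. Where groups are said to overlap or not, or both arrays of a time to lie above or below the others, this describes the 4 values only. The share of all tested probes whose groups do not overlap was not counted, so such a statement is no support for a change.

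The changes of both lines shared no array and could be set against each other. Across the 16333 probes the log2 change in KY170R followed that in KY170 with Pearson's r = 0.659 and Spearman's rho = 0.654, and with r = 0.670 among probes above the floor on all 4 arrays. These correlations are across probes, which share their arrays and normalization and are not independent replicates. Of all tested probes 74.3% moved the same way in both lines. A change of at least 2-fold in each line was seen for 596 probes upward and 423 downward, whereas 16 probes moved at least 2-fold in opposite directions. The spread of the changes was similar, with SDs of 0.68 in KY170 and 0.77 in KY170R across probes.

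**Figure D1:**
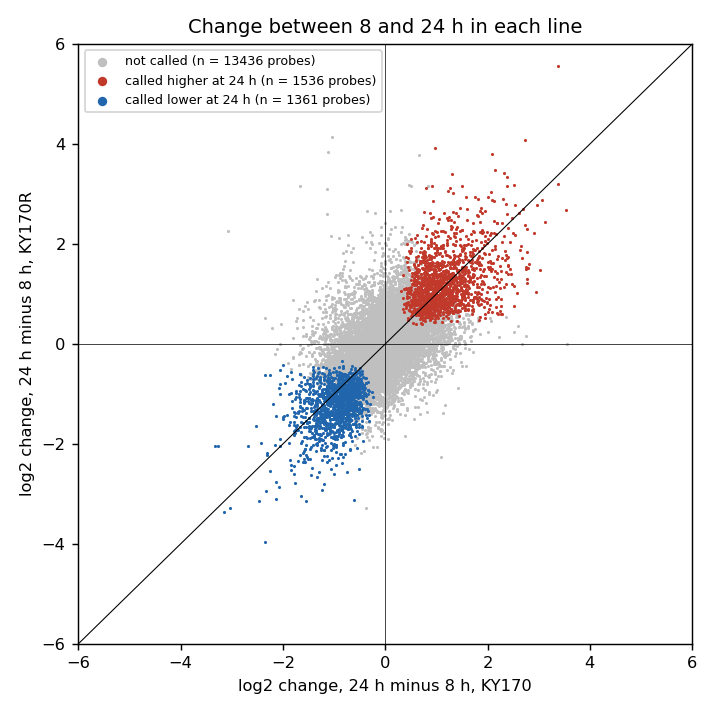
Log2 change between 8 and 24 h of each of the 16333 tested probes in KY170 (horizontal axis) and KY170R (vertical axis). Red points were called higher (1536), blue points lower (1361) and grey points were not called; the diagonal marks equal changes. Called probes lie at the upper right and lower left, as the fit largely requires, and the 16 probes that moved at least 2-fold in opposite directions lie among the grey points at the upper left and lower right.

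The largest rise among genes measured on all 4 arrays was that of GDF15, a secreted stress cytokine of the TGF-beta family and a p53 and ATF4 target. Its probe measured 94.9 and 991 in KY170 and 86.1 and 4042 in KY170R. Both 24 h arrays lay far above both 8 h arrays, which were nearly equal, and the log2 change was 4.47 ± 0.43, adjusted p = 0.00358, 22.1-fold over both lines. ELF3, an epithelial ETS factor, followed with 152 (KY170) and 112 (KY170R) at 8 h and 1002 and 1891 at 24 h (3.40 ± 0.32, adjusted p = 0.00358). KLF9, a Krüppel-like factor induced by glucocorticoids, went from 62.5 to 524 in KY170 and from 86.9 to 639.9 in KY170R, 7.86-fold over both lines. TSC22D3, also known as a glucocorticoid-induced gene, measured 40.9 at 8 h and 308 at 24 h in KY170 and 86.2 and 401 in KY170R (5.92-fold). For these 4 genes, picked for their large change, the groups did not overlap. The other genes with the largest rises common to both lines were GRB7, an adaptor of receptor tyrosine kinases (3.10 ± 0.27, adjusted p = 0.00270), ETV5, an ETS factor downstream of MAPK signalling (2.49), the membrane protease PRSS8 (2.78), the splicing regulator MBNL2 (2.86), the F-box protein FBXO32 (2.87), the tissue plasminogen activator PLAT (2.60), the sulfotransferase UST (2.53), the adaptor FYB1 (2.70), ANKRA2 (2.35), the divergent transcript TMEM123-DT (3.28) and the spindle protein HMMR described below. A second probe of FBXO32 was higher by 1.01 on the log2 scale and did not pass (adjusted p = 0.0851).

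Probes of a further 6 genes were above the floor only at 24 h, so the rise they give is a lower bound. They passed the filter only through the 24 h arrays, where they were high, so no p-value is given for them. The glucose transporter SLC2A12 measured −1.21 and −1.17 at 8 h, both below the floor, and 128 (KY170) and 219 (KY170R) at 24 h, at least 6.82-fold higher. ILDR1, a protein of tricellular junctions, was at least 7.04-fold higher, the iron reductase CYBRD1 at least 5.95-fold and the lipid droplet protein PLIN2 at least 5.86-fold. A second probe of CYBRD1, also called higher (1.84), measured 76.2 in KY170R at 8 h, above the floor. Dim probes of VEGFA and PSPH were at least 5.6-fold and 4.93-fold higher, and brighter probes of both genes, given below, were measured at both times.

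The named falls were smaller. RPPH1, the RNA subunit of ribonuclease P, measured 574 and 121 in KY170 and 343 and 58.8 in KY170R (−2.40 ± 0.26, adjusted p = 0.00513). FST, which encodes the activin inhibitor follistatin, was bright and went from 7218 to 1731 in KY170 and from 11672 to 3100.2 in KY170R (−1.99). SPHK1, the kinase that makes sphingosine 1-phosphate, measured 2649 (KY170) and 2689 (KY170R) at 8 h and 738 and 500.3 at 24 h (−2.14). In each of the 3 genes both 24 h arrays lay below both 8 h arrays. TDP1, which removes topoisomerase adducts from DNA, fell by 2.09, but a second, dim probe of TDP1 changed by 0.02 and did not pass (adjusted p = 0.967). MAZ, a zinc finger transcription factor, fell by 2.12 on its brighter called probe and was at least 4.73-fold lower on another, which was below the floor at 24 h. The other genes of this group were the ubiquitin ligase MARCHF4 (fell by 2.62), the transcriptional repressor NACC1 (fell by 2.47), the mitochondrial iron-sulfur protein IBA57 (fell by 2.27), the hair keratin KRT34 (fell by 2.27), the MAPK phosphatase DUSP7 (fell by 2.08), PPDPF (fell by 1.93), the chromatin remodeller SRCAP (fell by 1.81), the FGF-binding protein FGFBP1 (fell by 1.78), PSD4 (fell by 1.74) and the stress keratin KRT16 (fell by 1.72). Probes above the floor at 8 h only were those of FAM222A (at least 6.34-fold lower), the hypusine enzyme DOHH (at least 5.15-fold), C10orf95 (at least 3.03-fold) and CAMK2N2, an inhibitor of CaM kinase II (at least 3.03-fold), and a dim probe of SMAGP (at least 3.46-fold). The brightest probe of SMAGP was measured at both times, with 5022 and 2749 in KY170 and 4362 and 2031 in KY170R (−0.99, adjusted p = 0.0118).

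**Figure D2:**
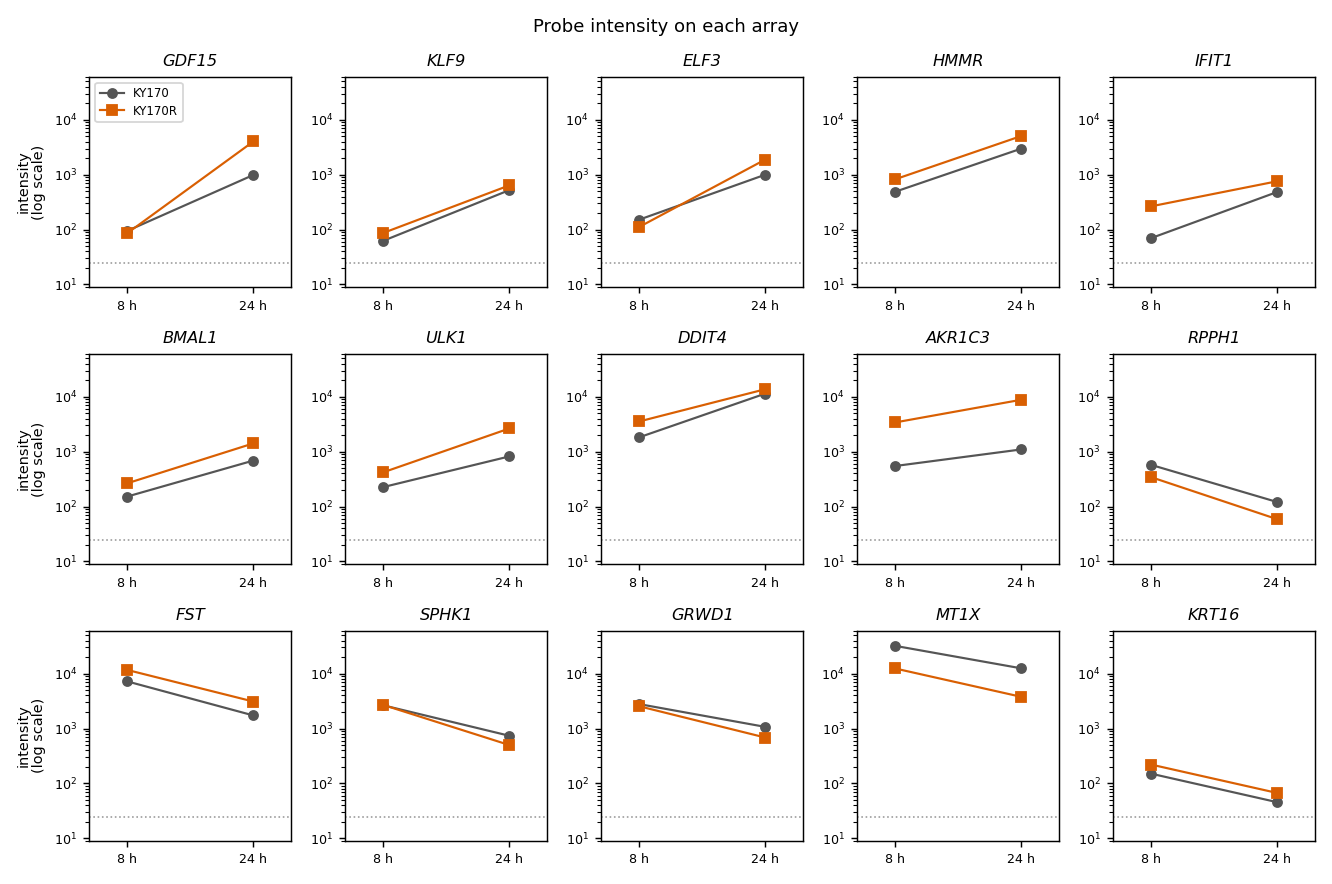
Deposited intensity (log axis) of 15 named genes at 8 and 24 h, with circles for KY170 and squares for KY170R, 1 array per point and no error bar. The dotted line is the floor of 24.533. Both lines run the same way in each panel, upward from GDF15 to AKR1C3 and downward from RPPH1 to KRT16.

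Genes of mitosis rose together. Of 46 genes of mitosis and the kinetochore, all tested, 24 were called higher and 1 lower (52.2% and 2.17%, against 11.1% and 9.17% of all genes), and the median change was 0.62, 0.74 in KY170 and 0.49 in KY170R. HMMR, which organizes the spindle, measured 489 at 8 h and 2987 at 24 h in KY170 and 825 and 5069 in KY170R (2.61 ± 0.19, adjusted p = 0.00270), with rises of 2.61 in KY170 and 2.62 in KY170R. BUB1, a kinase of the spindle checkpoint, measured 159 and 718 in KY170 and 335 and 1079.8 in KY170R (1.93). CDC25C, the phosphatase that activates CDK1 at mitotic entry, measured 91.9 (KY170) and 242 (KY170R) at 8 h and 471 and 655 at 24 h (1.90). The kinase NEK2 rose by 1.76. For HMMR, BUB1, CDC25C and NEK2 alike, both 24 h arrays lay above both 8 h arrays. CDK1 itself (1.16), TOP2A (1.16), the motor CENPE (0.93), the cyclin CCNB2 (1.02), AURKA (0.61) and CDC20 (0.72) were also called higher. CENPN, a centromere protein, was the 1 member called lower (−0.65). MKI67, the proliferation marker Ki-67, had 242 and 307 in KY170 and 435 and 189 in KY170R and did not pass (adjusted p = 0.42), and PLK1, AURKB and FOXM1 did not pass either. The cell cycle homology region, the letters TTTGAA, is known from promoters of genes expressed in G2 and mitosis. Searched on both strands of the 250 bases before each gene's start (RefSeq, GRCh38.p14), it was found in 19 of the 39 mitosis genes with a promoter entry (48.7%), in 13.6% of all 27305 promoters and in 8.83% of those of tested genes. A match describes the letters only and is no evidence of binding. The promoter of HMMR is shown because HMMR rose most in this list, with 2 matches in capitals, at chr5:163460472-163460631 (plus strand, ending at the base before the start).
HMMR: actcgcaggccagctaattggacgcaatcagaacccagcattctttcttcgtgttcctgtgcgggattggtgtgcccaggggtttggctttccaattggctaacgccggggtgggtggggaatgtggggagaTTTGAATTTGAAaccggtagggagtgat

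Genes of DNA replication were called at about the rate of all genes. Of 45 genes of G1/S and DNA replication 4 were called higher and 3 lower (8.89% and 6.67%, against 11.1% and 9.17%), with a median of −0.09. RFC4, POLA2, RPA1 and MCM6 rose by 0.58 to 0.76. CCNE1, the G1/S cyclin, measured 638 at 8 h and 227 at 24 h in KY170 and 493 and 234 in KY170R (−1.28 ± 0.24, adjusted p = 0.0136). RRM2, the ribonucleotide reductase subunit that peaks in S phase, measured 6157 and 3149.9 in KY170 and 4894 and 1912 in KY170R (−1.16), and the flap nuclease FEN1 fell by 0.77. In CCNE1 and RRM2 both 24 h arrays lay below both 8 h arrays. Replication-dependent histone genes, which are transcribed in S phase and whose transcripts end mostly without a poly(A) tail, were called lower for 7 of 14 tested genes and higher for none (50.0%, against 9.17% of all genes), with a median of −0.68. H4C3, the brightest of them, measured 29603 (KY170) and 26732 (KY170R) at 8 h and 19105 and 10866 at 24 h (−0.97), and H2AC18 and H2BC5 fell by 1.05 and 1.01. These genes share long stretches of sequence within each histone class, so a probe may read several copies. Only 14 of the 23 histone genes on the array passed the filter on low values.

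Genes of the p53 pathway split. Of 25 tested p53 targets 7 were called higher and 4 lower (28.0% and 16.0%, against 11.1% and 9.17% of all genes), with a median of 0.46. The CDK inhibitor CDKN1A (p21) measured 1331 at 8 h and 2864 at 24 h in KY170 and 3315 and 7901 in KY170R (1.18 ± 0.17, adjusted p = 0.00757). It rose in each line, but the KY170R array at 8 h was above the KY170 array at 24 h, so the groups overlapped across the lines. RRM2B, the p53-induced ribonucleotide reductase subunit, rose by 1.33, the phosphatase PPM1D by 1.17, the cyclin CCNG1 by 1.15 and BTG1 by 1.07. Lower at 24 h were ZMAT3 (7710.4 and 3830.1 in KY170 and 8227 and 3881 in KY170R, −1.05), TRIAP1 (−1.03), the nuclease AEN (−0.95) and PHLDA3 (−0.89). Both 24 h arrays of ZMAT3 lay below both 8 h arrays, although a second probe of that gene, lower by 0.46, did not pass (adjusted p = 0.128). MDM2, the ubiquitin ligase of p53, had 55.8 and 32.9 in KY170 and 42.7 and 101 in KY170R and did not pass (adjusted p = 0.74). In a list of G1 cyclins, CDK inhibitors and related genes 5 of 17 were called higher (29.4%) and none lower. The called genes were CDKN1A, the retinoblastoma family members RBL2 (1.49) and RB1 (1.09), the kinase CDK2 (0.70) and MYC (1.03). The cyclins CCND1 (−0.42) and CCND3 (−0.20) of this list did not pass. Nor did the inhibitors CDKN1B (−0.01), CDKN2B (−0.05) and CDKN2D (−0.02).

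Genes of DNA damage recognition and repair were called at shares near those of all genes (11.1% higher and 9.17% lower). Of 19 damage sensors and checkpoint kinases 3 were called higher and 1 lower (15.8% and 5.26%), of 24 genes of double-strand break repair 2 higher and 1 lower (8.33% and 4.17%), and of 7 Fanconi anemia genes 1 higher (14.3%). PRKDC, the catalytic subunit of DNA-PK that joins broken ends, measured 1063 and 2562 in KY170 and 980.4 and 2422 in KY170R (1.29 ± 0.19, adjusted p = 0.00729). MRE11, a nuclease that processes breaks, measured 199 (KY170) and 263 (KY170R) at 8 h and 539 and 653 at 24 h (1.38), while a second, dimmer probe of it, higher by 0.39, did not pass (adjusted p = 0.407). In both genes the 24 h arrays lay above both 8 h arrays. CHEK2, WEE1, BRCA1 and FANCL were higher by 1.17, 0.82, 1.10 and 1.46. H2AX, the histone variant phosphorylated at breaks, measured 4325 at 8 h and 2194 at 24 h in KY170 and 4743 and 2003 in KY170R (−1.11), and the end-joining factor PAXX fell by 0.73.

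Interferon-stimulated genes had the largest share of members called higher among the lists examined. Of 26 tested genes 15 were called higher and none lower (57.7%, against 11.1% of all genes), with a median of 1.02 (1.07 in KY170 and 0.72 in KY170R). Among the 23 above the floor on all 4 arrays 13 were called higher, with a median of 1.0. IFIT1, which binds foreign RNA, measured 69.9 and 484 in KY170 and 265 and 760.0 in KY170R (2.16 ± 0.32, adjusted p = 0.00778). OASL, a relative of the oligoadenylate synthetases, measured 97.6 (KY170) and 302 (KY170R) at 8 h and 436 and 1387 at 24 h (2.18), and IFIT2 190.1 at 8 h and 1276 at 24 h in KY170 and 491 and 1417 in KY170R (2.14). In IFIT1, OASL and IFIT2 the groups did not overlap, and the 8 h level was already higher in KY170R than in KY170. The RNA sensors IFIH1 (25.1 and 132 in KY170 and 65.0 and 191 in KY170R, 1.98) and RIGI (1.59), the antiviral factor SAMD9 (1.90), IRF1 (1.53), PARP9 (1.51) and IFI44 (1.41) rose too. A second, dim probe of IFIT1 near the floor, higher by 0.19, did not pass (adjusted p = 0.591). Other members did not pass. ISG15 had 1932 and 1960 in KY170 and 4424 and 2729 in KY170R (adjusted p = 0.29), IFI6 had 492 and 625, and 2148 and 1457 (adjusted p = 0.79), and IFI27 moved in opposite directions. Among genes of MHC class I and peptide loading 2 of 14 were called higher, B2M (0.74) and TAP1 (0.75), and the peptidase ERAP2 was lower (−1.07). These shares were 14.3% and 7.14%, against 11.1% and 9.17% of all genes.

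Promoters of these genes are known for the interferon-stimulated response element. Searched as GAAANNGAAA on both strands of the 250 bases before the start (RefSeq, GRCh38.p14), it was found in 14 of the 23 interferon-stimulated genes with a promoter entry (60.9%) and in 839 of all 27305 promoters (3.07%; 2.51% of those of tested genes). The stretches with matches are shown for 3 called genes, with the matches in capitals (TTTC runs are the element on the other strand, and neighbouring matches can overlap). They lie at chr10:89392463-89392622 (plus strand, IFIT1), chr10:89327837-89327996 (plus strand, IFIT3) and chr2:162318685-162318844 (minus strand, IFIH1), each ending at the base before the start.
IFIT1: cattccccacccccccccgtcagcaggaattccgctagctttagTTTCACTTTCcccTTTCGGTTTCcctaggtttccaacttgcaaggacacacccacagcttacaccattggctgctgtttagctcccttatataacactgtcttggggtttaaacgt
IFIT3: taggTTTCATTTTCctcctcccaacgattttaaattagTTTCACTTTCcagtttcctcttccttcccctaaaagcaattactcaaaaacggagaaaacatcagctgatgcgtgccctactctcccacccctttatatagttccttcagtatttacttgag
IFIH1: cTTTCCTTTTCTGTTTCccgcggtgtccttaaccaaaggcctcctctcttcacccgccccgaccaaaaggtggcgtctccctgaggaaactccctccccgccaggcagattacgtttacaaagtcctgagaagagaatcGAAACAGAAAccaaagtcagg
IFIT3 itself measured 188 and 726 in KY170 and 614 and 933 in KY170R (1.28), with changes of 1.95 and 0.60 in these lines, respectively.

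The cytokines IL1A and IL1B rose within a mixed list of NF-kB feedback genes and cytokines, in which 6 of 23 were called higher and 3 lower (26.1% and 13%, against 11.1% and 9.17%) with a median of 0.03. The median of this list turned negative when either KY170R array was left out. IL1A, an alarmin of epithelial cells, measured 513 (KY170) and 3428 (KY170R) at 8 h and 1935 and 16233 at 24 h (2.08 ± 0.18, adjusted p = 0.00270), and IL1B 811 at 8 h and 3119 at 24 h in KY170 and 2249 and 14145 in KY170R (2.30). IL36G, another cytokine of the IL1 family, was below the floor on both KY170 arrays, had 64.5 and 132 in KY170R and did not pass (adjusted p = 0.312). CXCL8, the neutrophil chemokine, measured 633 and 1581 in KY170 and 2061 and 12865 in KY170R (1.98), with a second probe higher by 2.47 (adjusted p = 0.00368). In IL1A, IL1B and CXCL8 both lines rose, and the 8 h array of KY170R was above the 24 h array of KY170 for IL1A and CXCL8, so that those groups overlapped across the lines. TNFAIP2 (1.72), TNIP1 (0.88) and NFKBIZ (0.84) were higher too. PTGS2, the inducible cyclooxygenase, measured 2943 (KY170) and 2588 (KY170R) at 8 h and 1065 and 1608 at 24 h (−1.08), and RELB and NFKBIB fell by 0.85 and 1.08. The feedback inhibitors NFKBIA (adjusted p = 0.40) and TNFAIP3 (adjusted p = 1.0) did not pass.

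Genes under ATF4 and CHOP, the transcription factors of the integrated stress response, were called higher for 12 of 25 tested members and lower for 1 (48.0% and 4.00%, against 11.1% and 9.17% of all genes), with a median of 1.03. The median was 0.76 in KY170 and 1.27 in KY170R. ATF4 itself measured 1347 at 8 h and 2506 at 24 h in KY170 and 850.2 and 2052 in KY170R (1.08 ± 0.20, adjusted p = 0.0125). DDIT4, an inhibitor of mTORC1 signalling, measured 1823 and 11408 in KY170 and 3545 and 13714 in KY170R (2.30), and PSPH, the last enzyme of serine synthesis, 329 (KY170) and 421 (KY170R) at 8 h and 1329 and 1812 at 24 h (2.06). In DDIT4 and PSPH both 24 h arrays lay above both 8 h arrays, as they did for ATF4. VEGFA (2.11), the pseudokinase TRIB3 (1.67), cystathionine lyase CTH (1.40), CEBPB (1.33), asparagine synthetase ASNS (1.24), PSAT1 (1.07), PCK2 (1.03) and STC2 (0.91) rose in both lines. NUPR1, below the floor at 8 h in both lines, was at least 2.79-fold higher. Among the 22 members above the floor on all 4 arrays 11 were called higher and 1 lower. DDIT3, which encodes CHOP, had 351 and 375 in KY170 against 356 and 2254 in KY170R and did not pass (adjusted p = 0.16). ATF5, a related factor, measured 2206 at 8 h and 942 at 24 h in KY170 and 1441 and 189 in KY170R (−2.08 ± 0.35, adjusted p = 0.0107), the 1 member called lower. Aminoacyl-tRNA synthetases, several of which ATF4 controls, were called higher for 7 of 19 and lower for 1 (36.8% and 5.26%, against the same shares), with a median of 0.47. AARS1 (1.29), EPRS1 (1.10), LARS1 (1.09) and TARS1 (1.07) led, and FARSA was lower (−1.01).

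The list of endoplasmic reticulum chaperones and protein folding gave 2 genes higher and 2 lower of 22. These shares (9.09% each) were near those of all genes (11.1% and 9.17%). HSP90B1 (1.18) and CREB3L2 (1.18) were higher, and CALR (−0.76) and SEC61B (−0.71) lower. The median was −0.14 in KY170 and 0.48 in KY170R. Of 20 heat shock proteins 1 was called higher, the co-chaperone BAG3 (1.02), and 0 lower. The share called higher (5%) was below the 11.1% of all genes.

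NRF2 targets were called higher for 6 of 26 and lower for none (23.1%, against 11.1% of all genes), with a median of 0.32, 0.08 in KY170 and 0.67 in KY170R. AKR1C3, the aldo-keto reductase at the centre of the study, measured 547 and 1096 in KY170 and 3402 and 8805 in KY170R (1.19 ± 0.19, adjusted p = 0.00949). It rose in both lines, and both KY170R arrays lay above both KY170 arrays. Its close paralog AKR1C2 measured 1851 (KY170) and 11333 (KY170R) at 8 h and 2655 and 20321 at 24 h (0.68), and probes of the AKR1C genes may read each other's transcripts. TXNRD1, which keeps thioredoxin reduced, measured 3733 at 8 h and 8151 at 24 h in KY170 and 3996 and 10054 in KY170R (1.23). GCLC, which starts glutathione synthesis, rose by 1.27, and ME1 and UGDH by 1.04 and 1.0. NQO1 (adjusted p = 0.33), GCLM (adjusted p = 0.49), SRXN1 (adjusted p = 0.28) and TXN (adjusted p = 0.91) did not pass. Of 17 antioxidant enzymes 3 were called higher, catalase CAT (0.71), MSRB1 (0.94) and GPX8 (1.43), and GLRX2 was lower (−0.86). These shares were 17.6% and 5.88%, against 11.1% and 9.17% of all genes. A second probe of CAT changed by −0.13 and did not pass.

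Metallothioneins, small proteins that bind zinc and copper and are induced by metals and glucocorticoids, fell. The list, which also holds the zinc exporter SLC30A1, was called lower for 5 of 6 tested genes (83.3%, against 9.17% of all genes). The median was −1.23. Among the 5 genes above the floor on all 4 arrays 4 were called lower. MT1X measured 32093 and 12499 in KY170 and 12423 and 3783 in KY170R (−1.54 ± 0.15, adjusted p = 0.00358), and MT2A 36699.6 (KY170) and 30334 (KY170R) at 8 h and 19856 and 11852 at 24 h (−1.12). For MT2A both 24 h arrays lay below both 8 h arrays, whereas the KY170 array of MT1X at 24 h (12499) was just above the KY170R array at 8 h (12423). MT1E fell by 1.42 and SLC30A1 by 1.29, and MT1G, below the floor at 24 h, was at least 2.25-fold lower. MT1F had 1773 and 350 in KY170 and 220 and 315 in KY170R and did not pass (adjusted p = 0.36). The sequences of these genes are so alike that their probes may share signal. The metal response element, bound by the zinc sensor MTF1, was searched as TGCACNC and TGCGCNC on both strands of the 250 bases before the start. It was found in 3 of the 3 tested members with a promoter entry, and also in 24.7% of all promoters (33.5% of those of tested genes), so that 1 match alone is common. Several matches lie in a row before both bright genes, shown with the matches in capitals at chr16:56682310-56682469 (MT1X) and chr16:56608424-56608583 (MT2A), both on the plus strand and ending at the base before the start.
MT1X: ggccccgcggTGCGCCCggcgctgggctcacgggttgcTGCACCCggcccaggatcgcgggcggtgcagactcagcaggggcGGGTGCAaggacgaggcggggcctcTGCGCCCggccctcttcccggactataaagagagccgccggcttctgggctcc
MT2A: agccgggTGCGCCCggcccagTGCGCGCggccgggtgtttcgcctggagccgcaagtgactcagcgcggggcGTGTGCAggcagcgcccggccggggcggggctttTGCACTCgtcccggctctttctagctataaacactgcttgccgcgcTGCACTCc
The palindrome CACGTG, an E-box that MYC binds, was present in 3 of 25 promoters of ribosome biogenesis genes (12%, against 9.35% of tested genes), and the ATF4 site TGATGNAA in 1 of 20 promoters of the ATF4 and CHOP list (5.00%, against 1.35%).

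Genes that build ribosomes fell. Of 31 genes of ribosome biogenesis and the nucleolus 15 were called lower and none higher (48.4%, against 9.17% of all genes), with medians of −0.75 in KY170 and −0.62 in KY170R. GRWD1, a histone chaperone involved in ribosome assembly, measured 2786 at 8 h and 1072 at 24 h in KY170 and 2546 and 685 in KY170R (−1.64 ± 0.21, adjusted p = 0.00628), and NOP16 measured 2124 and 723 in KY170 and 1717 and 541 in KY170R (−1.61). In both genes the 24 h arrays lay below both 8 h arrays. RRP12 (−1.40), RRP9 (−1.35), RRS1 (−1.24), PES1 (−1.20), NOP56 (−0.78) and the RNA polymerase I subunit POLR1B (−0.88) were lower too. NPM1 (9240 and 10671, 8344 and 9743), NCL and BOP1 did not pass. MYC, which drives this program in many cells, went the other way and measured 10299.5 (KY170) and 7037 (KY170R) at 8 h and 13861 and 21888 at 24 h (1.03). Mitochondrial ribosomal proteins were called lower for 13 of 62 and higher for none (21%), with a median of −0.42, and MRPL27 fell most among the named (2518 and 1290.3 in KY170 and 2704 and 668 in KY170R, −1.49). Subunits of oxidative phosphorylation were lower for 8 of 53 (15.1%, median −0.22), among them NDUFB1 (−1.39), NDUFC1 (−1.18) and cytochrome c, CYCS (−1.23). Cytosolic ribosomal proteins were lower for 4 of 67 (5.97%, below the 9.17% of all genes), RPL13, RPL29, RPS21 and RPS26, with a median of −0.15. Most genes of this last list are short, and its direction turned with a centring by gene span, described below. The medians of mitochondrial ribosomal proteins and of oxidative phosphorylation subunits shrank with the same centring.

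**Figure D3:**
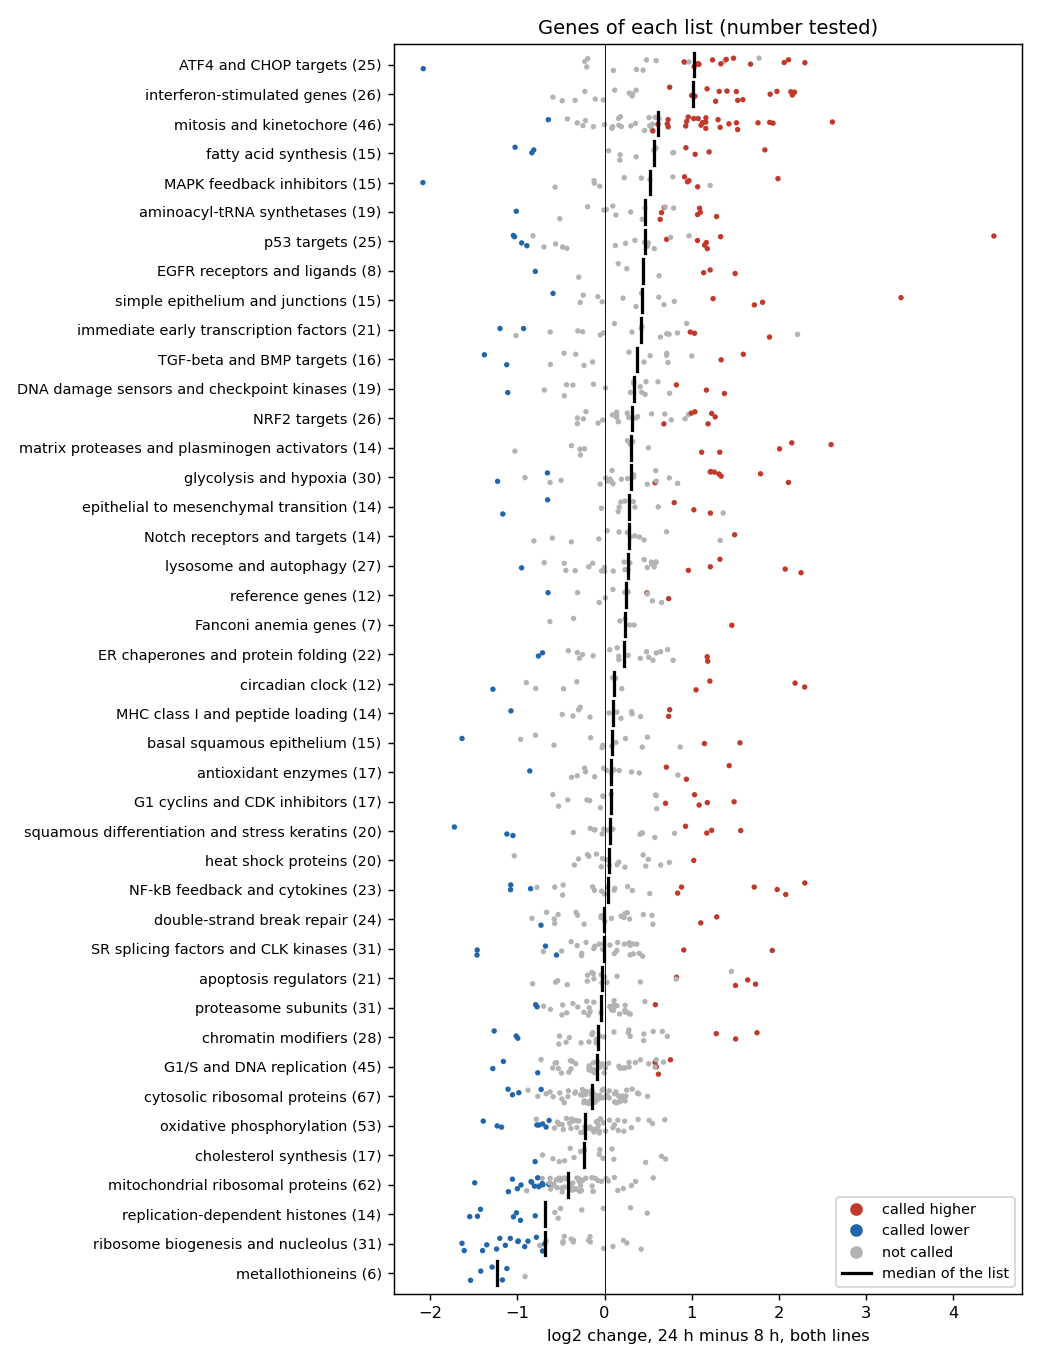
Log2 change between 8 and 24 h (horizontal axis, both lines together) of the tested genes of each list with at least 6 tested genes, 1 point per gene, with the number tested in parentheses and a black bar at the median of each list. Red points were called higher, blue lower, grey not called; vertical scatter within a row has no meaning. ATF4 targets, interferon-stimulated genes and mitosis stand at the top with medians of 1.03, 1.02 and 0.62, and histones, ribosome biogenesis and metallothioneins at the bottom with −0.68, −0.69 and −1.23.

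Growth factor signalling genes moved both ways. Among the feedback inhibitors of MAPK signalling 5 of 15 were called higher and 1 lower (33.3% and 6.67%, against 11.1% and 9.17% of all genes, median 0.52). ERRFI1, an inhibitor of EGFR, measured 1073 at 8 h and 2862 at 24 h in KY170 and 1150.4 and 6810.3 in KY170R (1.99 ± 0.27, adjusted p = 0.00684), with both 24 h arrays above both 8 h arrays. DUSP6, DUSP10 and SPRY1 rose by 0.97, 0.92 and 0.95, although a dim second probe of SPRY1 changed by −0.04 (adjusted p = 0.946), and DUSP7 was the member called lower. Of 8 EGFR family receptors and ligands 3 were called higher (37.5%): HBEGF (1285 and 1718 in KY170 and 1192 and 4785 in KY170R, 1.21), ERBB2 (1.14) and ERBB3. The brightest probe of ERBB3 rose by 1.5 in each line, while a second probe fell by 1.21 (adjusted p = 0.0216) and another changed by −0.65, so ERBB3 has no settled direction. NRG1, an ERBB3 ligand, fell by 0.79. Among immediate early transcription factors 3 of 21 were called higher (14.3%), ATF3 (416 and 986 in KY170 and 481 and 2802 in KY170R, 1.89), MYC and KLF2, and FOSL1 (−1.20) and JUND (−0.93) were called lower. The median of this list was −0.13 in KY170 and 0.51 in KY170R, and it turned from 0.42 to −0.09 without the KY170R array at 24 h.

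Metabolic genes rose in part. Of 30 genes of glycolysis and hypoxia 8 were called higher and 2 lower (26.7% and 6.67%, against 11.1% and 9.17% of all genes, median 0.30). NDRG1 measured 82.8 and 211 in KY170 and 161 and 756 in KY170R (1.79) and BNIP3, a mitophagy receptor, 2739 (KY170) and 2410.5 (KY170R) at 8 h and 6316 and 5625 at 24 h (1.21), and in both genes the 24 h arrays lay above both 8 h arrays. PKM was lower (−0.66), and so was P4HA1 on its brightest probe (−1.23), but another probe of P4HA1 rose by 1.69 (adjusted p = 0.0119), so its direction is not settled. Of 15 genes of fatty acid synthesis 4 were called higher, ACSS2 (283 and 736 in KY170 and 367 and 1813 in KY170R, 1.84), ACSL5, SCD and ELOVL5, and 3 lower, ELOVL1, SREBF1 and FABP5 (26.7% and 20%). Of 17 genes of cholesterol synthesis 1 was called, LSS (−0.80), or 5.88%, below the background. Of 27 genes of lysosomes and autophagy 5 were called higher and 1 lower (18.5% and 3.70%, median 0.27). ULK1, the kinase that starts autophagy, measured 226 at 8 h and 818 at 24 h in KY170 and 419.9 and 2642 in KY170R (2.26 ± 0.25, adjusted p = 0.00518), and a second probe of it rose by 2.30. GABARAPL1, a coat protein of autophagosomes, measured 104 and 343 in KY170 and 119 and 638 in KY170R (2.07). In both genes both 24 h arrays lay above both 8 h arrays. NPC1, ATG7 and WIPI1 rose by 1.21, 0.96 and 1.32, and the lysosomal channel MCOLN1 fell by 0.95.

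Of 12 circadian clock genes 4 were called higher and 1 lower (33.3% and 8.33%, against 11.1% and 9.17% of all genes, the background for the lists that follow). BMAL1, the activator at the core of the clock, measured 152 (KY170) and 265 (KY170R) at 8 h and 688 and 1414 at 24 h (2.30 ± 0.23, adjusted p = 0.00362), with both 24 h arrays above both 8 h arrays. NFIL3, a repressor in the output of the clock, measured 17.8 at 8 h and 85.4 at 24 h in KY170 and 26.2 and 156 in KY170R (2.19), its 8 h level in KY170 below the floor. NPAS2 and BHLHE40 rose by 1.21 and 1.05. TEF, an output activator, measured 248 and 65.4 in KY170 and 134 and 85.8 in KY170R (−1.28), and PER2 had 520 and 177 in KY170 and 314 and 265 in KY170R and did not pass (adjusted p = 0.088). Of 21 apoptosis regulators 4 were called higher, CASP9 (1.64), BIRC2 (0.83), CASP6 and HRK (19%). The probes used for CASP6 and HRK were below the floor on both 8 h arrays. Another probe of CASP6, also called higher (1.17), measured 31.5 in KY170R at 8 h. Among the 17 regulators above the floor on all 4 arrays 2 were called higher. Of 31 splicing factors and kinases 2 were higher and 4 lower (6.45% and 12.9%), with RBM39 (3460.0 and 1292 in KY170 and 3150.2 and 1109 in KY170R, −1.46) among those lower. Of 28 chromatin modifiers 3 were higher and 3 lower (10.7% each, near the background). Higher were CHD2, KDM5B and KDM6A, and lower were the acetyltransferases EP300 (−1.0) and CREBBP (−1.01) and the methyltransferase NSD1, with a second probe of CREBBP at 0.65, which did not pass. Of 31 proteasome subunits 1 was higher and 2 lower (3.23% and 6.45%, below the background), and of 12 reference genes often used for normalization 2 were higher, B2M (0.74) and TFRC (0.49), and POLR2A lower (−0.65), 16.7% and 8.33%.

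Epithelial genes also moved both ways. Of 15 genes of simple epithelium and junctions 4 were called higher and 1 lower (26.7% and 6.67%, against 11.1% and 9.17% of all genes). CLDN1, a tight junction protein, measured 1574 (KY170) and 1517 (KY170R) at 8 h and 5184 and 5693 at 24 h (1.81 ± 0.18, adjusted p = 0.00358), with both 24 h arrays above both 8 h arrays. ESRP1, an epithelial splicing factor, and CGN rose by 1.72 and 1.25, and KRT7 fell by 0.59. In the basal squamous list 2 of 15 genes were called higher and 1 lower (13.3% and 6.67%). KRT15 (687 and 1499 in KY170 and 438 and 1729.9 in KY170R, 1.55) and the desmosomal cadherin DSG3 (1.15) were higher, and S100A2 was lower (6204 and 2411 in KY170 and 6818 and 1816 in KY170R, −1.64). SFN, an epithelial cell cycle inhibitor counted among the squamous markers, measured 6009 at 8 h and 2241 at 24 h in KY170 and 8931 and 2183 in KY170R (−1.73). Of 20 tested genes of squamous differentiation and stress keratins 4 were higher, EMP1, KRT80, PPL and SCEL, and 3 lower, KRT16, CNFN and KRT10 (20% and 15%). Of 14 matrix proteases and plasminogen activators 5 were called higher and none lower (35.7%, against 11.1% of all genes higher). PLAU, the urokinase, measured 62.0 and 260.5 in KY170 and 436 and 2038 in KY170R (2.15), and PLAT 225 (KY170) and 487 (KY170R) at 8 h and 1108 and 3634 at 24 h (2.60). In each line both activators rose, while the KY170R array of PLAU at 8 h lay above the KY170 array at 24 h. MMP28 rose by 2.01. TIMP3, a protease inhibitor counted in this list, rose by at least 1.32 (below the floor at 8 h in KY170R). Among the 12 members above the floor on all 4 arrays 4 were called higher. Among epithelial to mesenchymal transition genes ITGA5 (1.21), ITGAV (0.80) and ACTA2 (1.03) were higher, and TAGLN (−1.17) and THBS1 (−0.65) lower, of 14 tested (21.4% and 14.3%). Of 16 TGF-beta and BMP targets 2 were called higher and 2 lower (12.5% each, near the shares of all genes). SMAD6, called higher, was above the floor at 24 h only and passed the filter only through that time. Among the 11 targets above the floor on all 4 arrays 1 was called higher and 0 lower. ID1, a BMP target, measured 837 at 8 h and 2702 at 24 h in KY170 and 1909 and 5382 in KY170R (1.59). ID2 fell by at least 1.12 (below the floor at 24 h in KY170) and BMP4 by at least 1.38 (below it at 24 h in KY170R). The Notch target HEY1 rose by 1.49, the 1 gene called of 14 in its list (7.14%, against 11.1% of all genes).

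Further probes of some named genes did not pass (adjusted p of 0.0558 to 0.967). In the direction of the probe given above these were probes of ACSL5 (1.23), MYC (0.96), CDC25C (0.73), SCEL (0.63), B2M (0.60), SPRY1 (0.56), FBXO32 (0.51), PLIN2 (0.49), PRKDC (0.32), DUSP6 (0.19), KRT80 (0.18), KRT16 (−0.85), MAZ (−0.81), FABP5 (−0.60), ZMAT3 (−0.57), GLRX2 (−0.47), LSS (−0.44), RPL13 (−0.41), NSD1 (−0.31), TDP1 (−0.18) and NRG1 (−0.15). Against that direction were dim probes of ERBB2 (−0.24) and ERAP2 (0.08), besides those already given. All of these probes were dimmer than the probe that represents the gene.

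Single genes moved apart in the lines. With 1 array per line and time, a difference between the lines in their change leaves no residual degrees of freedom and was not tested. CCN2, a secreted matrix protein induced by YAP and TGF-beta signalling, measured 307 and 141 in KY170 and 166 and 2388 in KY170R, and a second probe 192 and 93.9 in KY170 and 81.0 and 1421 in KY170R. EGR1, an immediate early zinc finger factor, measured 194 (KY170) and 153 (KY170R) at 8 h and 61.0 and 1364 at 24 h. HSPA5 (BiP), the main chaperone of the endoplasmic reticulum, measured 836 at 8 h and 377 at 24 h in KY170 and 787 and 4760.2 in KY170R. In all 3 genes KY170 was lower at 24 h and KY170R higher, and the 8 h levels of the lines lay closer together than the 24 h levels. HSPA6, a heat-induced chaperone, went from 208 to 24.0 (below the floor) in KY170 and from 61.7 to 296 in KY170R. FOS, another immediate early gene, measured 58.6 and 92.5 in KY170 and 70.7 and 966 in KY170R, and FOSB 426 and 329, and 316 and 1307, neither passing in the fit over both lines. Opposite to these ran IFI27, with 36.3 and 76.9 in KY170 and 1021 and 212 in KY170R, CCN3, with 70.6 and 158, and 162 and 69.5, and SERPINB7, with 61.1 and 133, and 64.3 and 13.9 (below the floor). Among the 16 probes that moved at least 2-fold in opposite directions, 13 were higher at 24 h in KY170R and 3 in KY170.

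**Figure D4:**
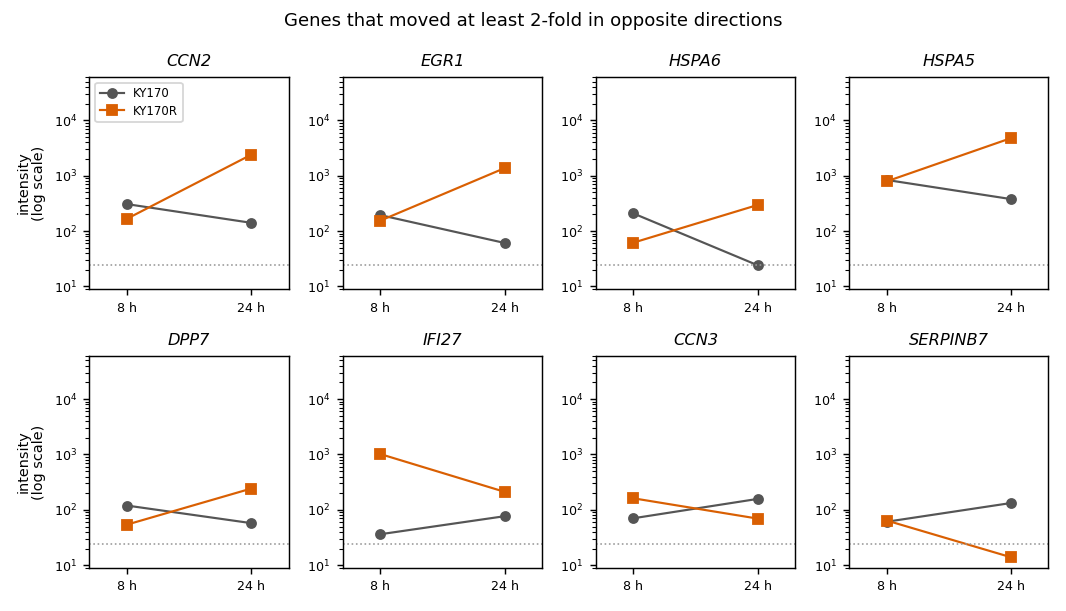
Deposited intensity (log axis) at 8 and 24 h of 8 genes whose probes moved at least 2-fold in opposite directions, with circles for KY170 and squares for KY170R, 1 array per point and no error bar. The dotted line is the floor of 24.533. In CCN2, EGR1, HSPA6, HSPA5 and DPP7 the lines of KY170R rise and those of KY170 fall, and in IFI27, CCN3 and SERPINB7 the reverse holds.

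The change was related to the length of the gene. Gene span, the distance from start to end including introns, was known for 10108 of the tested genes (RefSeq, GRCh38.p14). Its Spearman correlation with the log2 change was 0.321 across genes (0.305 in KY170 and 0.291 in KY170R), a description over genes that share arrays. Genes were ordered by span and split into 10 bins of 1010 to 1012 genes. In the bin of the shortest genes (up to 4.52 kb) the median change was −0.34, with 3.56% called higher and 19.9% lower. In the bin of the longest (from 148 kb) it was 0.31, with 20.3% called higher and 2.27% lower. Genes called higher had a median span of 53 kb and genes called lower 11.1 kb, against 28.4 kb over all. The lists differ in span as well, from a median of 0.518 kb in histones and 1.34 kb in the metallothionein list to 28.3 kb in mitosis, 24.3 kb in ribosome biogenesis and 14.1 kb in interferon-stimulated genes. The part of gene span in these changes was not tested. When each array's values were centred within 10 bins of gene span, cut anew over the 13013 tested probes with a span, 2226 probes were called. Of these, 1651 were also called without the centring. The medians were then 0.78 in mitosis (26 higher, 1 lower), 1.03 in interferon-stimulated genes (16 higher), 1.08 in ATF4 and CHOP targets (15 higher, 1 lower), −0.53 in ribosome biogenesis (16 lower), −0.36 in histones (6 lower) and −0.94 in the metallothionein list (3 lower). That of cytosolic ribosomal proteins turned from −0.15 to 0.15, with 14 genes higher and 1 lower.

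**Figure D5:**
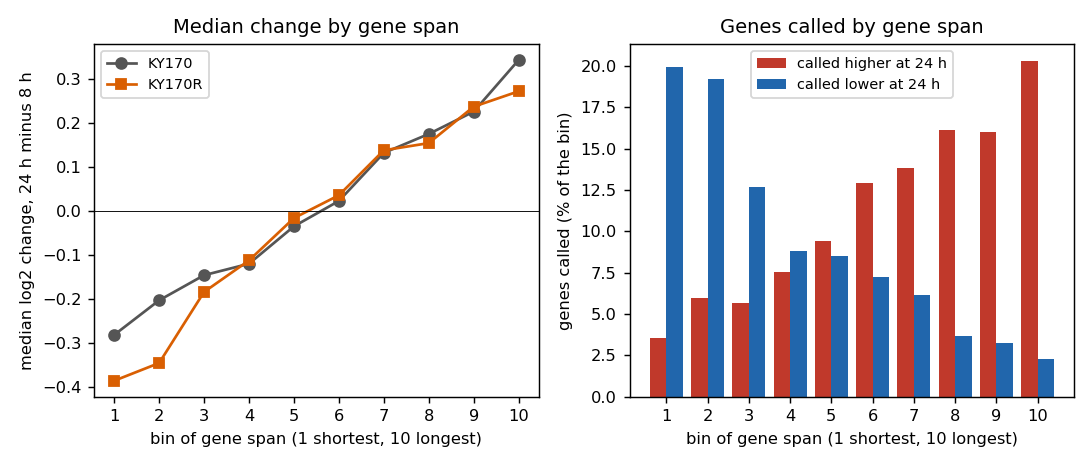
Genes ordered by span in 10 bins (1 shortest, 10 longest). The left panel gives the median log2 change between 8 and 24 h in KY170 (circles) and KY170R (squares), and the right panel the percentage of each bin called higher (red) or lower (blue). The median climbs from −0.28 to 0.34 in KY170 and from −0.39 to 0.27 in KY170R, and the share called lower drops from 19.9% to 2.27%.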

How the data were processed

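RNA of KY170 and KY170R cells was hybridised by the authors to Illumina Human-6 V3 arrays and read with BeadStudio; no source used here gives its version or the normalization. Deposited were linear probe intensities, background-subtracted (29.9% of each array below 0) and normalized between arrays. Arrays were grouped by line and time, 1 array in each group, so no spread within a group could be measured. The small number of arrays limits the precision. With 1 residual degree of freedom per probe, the p-values rest largely on the prior variance shared across probes. Noise of the arrays and unequal time courses of KY170 and KY170R enter that spread together. The p-values describe these arrays only. No value column was left unused, and the 0 h arrays entered only the floor, the fit to all 6 arrays and the fits with an array left out.

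Values were raised to a floor of 24.533, the absolute size of the lowest value over the 6 arrays, and turned into log2, which understates changes near the floor. Probes above the floor on at least 2 of the 4 arrays were fitted with limma 3.58.1 in R 4.3.3 (time and line as terms, trended and robust prior variance, two-sided, Benjamini-Hochberg over 16333 probes, adjusted p under 0.05). The pairing by line comes from the design, since the arrays of a pair hold the same cell line. The fit was also run on simulated arrays with independent noise and the same change in both lines. Such arrays lack real differences between the lines in their course, so that run is no support for the calls made here. The platform annotation named 1 gene for 27578 probes and several for 13, left 21212 unnamed, and 27541 had an Entrez identifier in the RefSeq table of GRCh38.p14, the source of spans and promoters. A gene was represented by its tested probe with the highest mean.

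The genes named are the 15 each way with the largest smaller-of-both-lines change among called probes above the floor on all 4 arrays, the 6 each way measured at 1 time only, up to 4 called members each way per list, and AKR1C3. Members named beyond this rule were chosen after their values were seen. The members and the 46 lists were chosen with earlier results of these data known, so no list is independent evidence. Lists are described by counts and medians, without a test. BeadStudio's own score, named in the methods for calling genes, was not computed.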

Additional observations from a re-analysis of the deposited data

Results flagged for a closer look

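The following genes moved at least 2-fold in opposite directions in the lines between 8 and 24 h, each on 1 array per line and time, and the difference between the lines was not tested. Values are the log2 change in KY170R minus that in KY170. Those with the higher change in KY170R were the heat-induced chaperone HSPA6 (5.35), the matrix protein CCN2 (4.97), the early response factor EGR1 (4.83), a probe without a gene name, ILMN_1669657 (4.24), the endoplasmic reticulum chaperone HSPA5 (3.74), the dipeptidyl peptidase DPP7 (3.22), SPOCD1 (2.63), HEATR3 (2.42), the mitochondrial ATPase ATAD3B (2.36), the nuclear pore protein NUP155 (2.35), AKIRIN1 (2.31) and the cyclin CCNL2 (2.20). Those with the lower change were the interferon-stimulated gene IFI27 (−3.35), the serpin SERPINB7 (−2.51) and the matrix protein CCN3 (−2.38). HSPA6, SPOCD1 and SERPINB7 were below the floor on 1 of the 4 arrays, so the size of their difference is a bound.

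The unnamed probe measured 314 and 142 in KY170 and 127 and 1078 in KY170R. Among lists, the medians of immediate early transcription factors and of endoplasmic reticulum chaperones and protein folding had opposite signs in the lines. They differed by 0.64 and 0.62, which was not tested either.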

How the results depend on the processing

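The count of 2897 called probes (1536 higher, 1361 lower) rests on the prior variance, on the pairing by line and on all 4 arrays. With one prior variance for all probes it was 1442 (817 and 625), of which 1433 were also called in the reported fit. With no replicate block, that is without the pairing by line, it was 0 (0 and 0), with 4029 probes below an unadjusted p of 0.05 and a smallest adjusted p of 0.124. With each array left out in turn, in a fit to the other 5 arrays of the series, it was 0 in each case (range 0 to 0, higher and lower alike); a time with 1 array left is then assumed to vary like the others. With the floor at 50 it was 4 (0 and 4), and with floor and filter at 50 together, 2920; in the first case many tested probes are constant at the floor by construction. The methods' t-test, run unpaired on the same values, called 16 (7 and 9) after adjustment and 2628 at an unadjusted p under 0.05. It lacks both the pairing by line and the shared prior, so their parts in the drop cannot be separated. With no model, 1019 probes changed at least 2-fold in each line (596 and 423). The other alternatives gave 2033 to 3075. A fit without a filter could not be fitted; the filter on at least 1 array took its place, and this, floor and filter at 50 and the centring by gene span were chosen after seeing the data.

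None of the 218 probes named by rule changed direction in an alternative that tested it; other genes given in the text were not followed across the alternatives. Of the 218, 147 kept their call with one prior variance, 177 with all 6 arrays and 180 with the centring by gene span. List medians changed sign for 2 to 6 of the 46 lists with an array left out and for 5 with the centring by gene span. All had reported medians within 0.15 of 0 except immediate early factors and the list of endoplasmic reticulum chaperones and protein folding. Both of these turned without the KY170R array at 24 h.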

Other observations

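Several further genes changed to a different extent in the lines, and the difference between the lines was not tested. DUSP1, a phosphatase of the MAPK pathway, measured 1877 and 1641 in KY170 and 1043 and 6401 in KY170R. GBP2, a guanylate-binding protein induced by interferon gamma, measured 174 and 105 in KY170 and 246 and 1112 in KY170R. PADI3, which converts arginine to citrulline in differentiating epithelium, was higher at 24 h in both lines, with 1499 and 2058 in KY170 and 80.1 and 727 in KY170R, and the phosphatase CDC14B had 920.5 and 492, and 507 and 2202. APAF1, the scaffold of the apoptosome, changed more in KY170, with 28.4 and 192 in KY170 and 142 and 159 in KY170R, and so did IFNLR1, a receptor chain for type III interferons, with 33.3 and 155, and 123 and 136. None of these 6 genes passed in the fit over both lines (adjusted p of 0.0892 to 0.647).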
